A study of Mus musculus with 44 samples.

Results

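Whole blood of saline-treated mice had 852 windows of the genome in which methylation was low, while the same windows were high in LPS 12 h blood and in both brain regions of saline mice. Each is an autosomal tile, a fixed window of 1000 bp with at least 3 measured cytosines in all 3 tables used. A tile was a member when its mean was at least 70% in saline hippocampus, saline frontal cortex and LPS 12 h blood, and at most 50% in saline blood. The 852 members were chosen from 78276 tiles that could have met the rule, and make up 2.516% of the 33864 tiles at or above 70% in the 3 other groups. These 4 groups chose the members, so their values are given as a description and were not tested.

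The libraries were made by reduced representation bisulfite sequencing (RRBS), in which a restriction digest enriches CpG-rich fragments and bisulfite shows, for each cytosine, the percent of reads that were methylated. All animals were wild type male C57BL/6J mice aged 8 to 12 weeks that had drunk corticosterone (CORT, 200 mg/L with 0.6% ethanol) over 7 days. On day 8 they had a 4 mg/kg injection of diisopropyl fluorophosphate (DFP), a cholinesterase inhibitor, and CORT was then repeated in alternate weeks until week 5. Saline or lipopolysaccharide (LPS, bacterial endotoxin, 0.5 mg/kg) closed the schedule, so the saline groups carry CORT and DFP too, and no group without CORT and DFP was analysed here. Saline tissue was collected at 6 h only, and LPS tissue at 6, 12 or 24 h. Blood had 4 saline libraries and, after LPS, 4 at 6 h, 3 at 12 h and 3 at 24 h. The same order gave 3, 4, 3 and 4 libraries of hippocampus and 4 in every group of cortex. Nothing in the labels says that libraries of a group are separate animals or that tissues share animals, so a p-value measures the spread between these libraries, which may be technical. Read depth is unknown because the tables hold percentages only.

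CpG methylation is high across most of the mammalian genome and low at active promoters and enhancers, and each cell type has its own set of low regions that is kept through cell division. A partly methylated tile in a mixed tissue can hold some cells with methylated and others with unmethylated copies, or reads that are partly methylated in every cell. In bulk DNA the 2 cannot be told apart, nor can a change in the share of a cell type be told apart from a change within cells. Whole blood DNA comes mainly from leukocytes, and the regulatory regions of leukocyte genes are commonly unmethylated in those cells.

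The label of the saline blood libraries was set against such genes before any other result. Among tiles at or above 70% in both saline brain regions, 7 in or beside genes of the pan-leukocyte list were at or below 50% in LPS 6 h blood. In Dock2 (chromosome 11, 34783000 to 34783999), a guanine exchange factor of blood cells, the level was 4.11% in LPS 6 h blood and 51.5% in saline blood. The tile of Ptpn6, the haematopoietic phosphatase SHP-1 (chromosome 6, 124732000 to 124732999), had 4.37% and 40.1%, and the tile of the integrin gene Itgal had 7.03% and 47.6%. Arhgap45, also active in blood cells, had 4.50% in LPS 6 h blood and 69.2% in saline blood, and Rac2, a small GTPase of blood cells, had 15.1% and 42.0%. The integrin gene Itgb2 (20.9% and 33.8%) and the inositol phosphatase gene Inpp5d (49.1% and 63.7%) had the smaller gaps. The 7 tiles were picked by their LPS 6 h level, which largely fixes the direction of these gaps. By the same bound in saline blood 6 tiles of the list qualified, and 2 of them, the members at Ptpn6 and Dock2 described with the lists, were lower in saline than in LPS blood. Over the list's 40 tiles that were high in both saline brain regions, the mean of a library ranged from 76.5 to 77.3% in saline and from 74.8 to 76.3% in LPS 6 h blood. Of the 35765 tiles at or above 70% in both saline brain regions, 131 were at or below 10% in LPS 6 h blood and 1 in saline blood. At or below 50% the order was reversed, with 864 tiles in LPS 6 h blood and 1169 in saline blood, the 852 members included. The levels of the leukocyte tiles in the 4 saline libraries thus go against the whole blood label, so that label is in doubt, and saline blood here means the libraries labelled so. The part of cell makeup in the results that follow was not tested, and every one of them rests on the 4 saline blood libraries, without which the members could not be defined.

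Promoter sequences show where inside a member the measured CpGs lie. RefSeq promoter windows (GRCm38.p6, from 250 bases before to 50 after a transcription start) touched members 26 times, 12 windows held a measured cytosine, and 4 of these belong to protein-coding genes. All 37 measured cytosines in the 12 windows lay on a C, or on the opposite strand's G, of the sequence. The 250 bases before the start of 3 of these genes follow, 5′ to 3′ on the gene's own strand, with the measured CpGs in capitals. They were chosen because they join a measured drop in saline blood to a gene start.
Anxa8, plus strand, chr14:34085729-34085978: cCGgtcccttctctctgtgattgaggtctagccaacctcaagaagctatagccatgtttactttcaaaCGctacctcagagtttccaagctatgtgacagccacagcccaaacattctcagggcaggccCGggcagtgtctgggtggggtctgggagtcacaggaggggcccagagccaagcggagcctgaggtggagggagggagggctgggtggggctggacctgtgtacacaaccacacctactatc
Itga3, minus strand, chr11:95069199-95069448: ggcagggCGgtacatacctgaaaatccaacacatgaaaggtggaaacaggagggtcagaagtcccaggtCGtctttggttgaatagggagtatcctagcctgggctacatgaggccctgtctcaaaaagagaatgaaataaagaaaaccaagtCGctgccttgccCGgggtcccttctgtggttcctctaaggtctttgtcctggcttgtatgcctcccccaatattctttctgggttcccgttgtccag
Cyp2w1, plus strand, chr5:139352366-139352615: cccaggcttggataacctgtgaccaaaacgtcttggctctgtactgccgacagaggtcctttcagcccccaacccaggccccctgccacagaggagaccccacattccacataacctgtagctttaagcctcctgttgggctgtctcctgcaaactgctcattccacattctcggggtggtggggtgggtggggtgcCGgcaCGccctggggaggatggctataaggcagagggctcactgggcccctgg

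Anxa8 encodes annexin A8, a calcium-dependent membrane-binding protein of stratified epithelia, and its window had 4 measured cytosines at 3 CpGs. At the first CpG (position 34085730) the saline libraries gave 6.45, 32.7, 29.3 and 41.9%, against an LPS 6 h mean of 80.8%. At the second CpG the plus strand (34085797) averaged 26.0% in saline and 90.5% in LPS 6 h blood, and the minus strand (34085798) 32.1% and 86.4%. The third (34085859) had 18.6% and 61.9%. Both strands of the second CpG therefore showed the low level. Saline library 1 was the lowest of the 4 at each of the 4 cytosines. Itga3, the integrin alpha 3 chain that binds laminin at the base of epithelia, had saline means of 41.8, 56.2, 40.4 and 49.8% at its 4 cytosines. The LPS 6 h means of the same cytosines were 84.1, 87.8, 77.4 and 90.7%. Cyp2w1, a cytochrome P450 gene, had 37.9 and 47.3% in saline and 85.9 and 88.8% in LPS 6 h blood. The olfactory receptor gene Olfr215, the fourth of these genes, had 25.1 and 35.3% in saline and 65.9 and 82.3% in LPS 6 h blood.

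Over the 852 members the 4 saline blood libraries had means of 41.5, 41.4, 41.2 and 40.8% (mean 41.2% ± 0.310, SD, n = 4). The 4 LPS 6 h libraries had 86.7, 77.2, 86.4 and 84.6%, a mean of 83.7% ± 4.42 (n = 4). The 3 LPS 12 h libraries, which the rule used, averaged 86.8% ± 0.848 (n = 3), and the 3 LPS 24 h libraries 85.9% ± 2.17 (n = 3) over the 851 members measured there. The saline libraries lay within 1 point of each other, and no LPS library came near them. LPS 6 h library 2 was the lowest LPS library of blood. It was also the lowest of its group over the 31188 tiles that were high in all 4 groups, with 87.8% against 89.0 to 90.3% in the other 3. Over those tiles saline blood had 88.9% ± 0.0952 (n = 4) and LPS 6 h blood 89.3% ± 1.17 (n = 4).

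**Figure D1:**
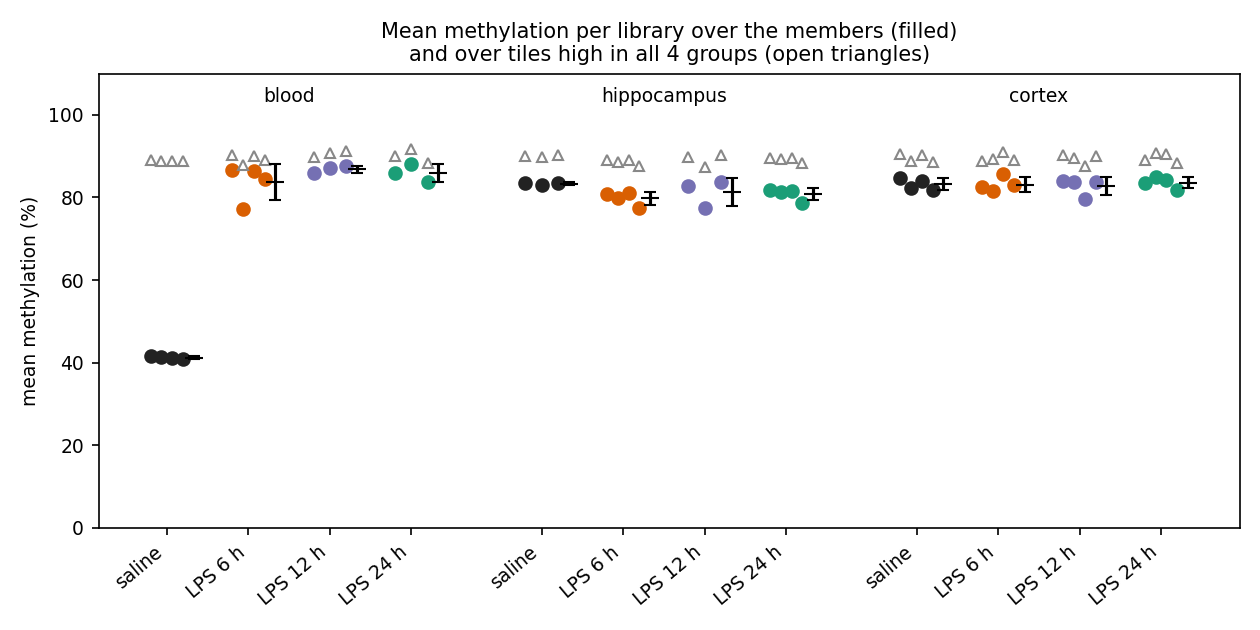
Mean methylation in percent (vertical axis) per library over the 852 members, filled points coloured by group, with group mean and SD beside them; open triangles show the same libraries over 31188 tiles high in all 4 groups of the rule. The 4 saline blood libraries sit at 40.8 to 41.5%, and the other 40 libraries lie between 77.2 and 88.1%.

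LPS 6 h and LPS 24 h blood were not used by the rule, although the saline libraries they are set against were. The 6 h group was at or above 70% in 820 of 852 members (96.24%), against 57% of all eligible tiles and 99.2% of tiles high in the 3 other groups. The 24 h group was at or above 70% in 828 of 851 members (97.3%), against 57.1% of eligible tiles and 99.1% of tiles high in the 3 other groups. The shares of the members thus lay below those of the tiles high in the 3 other groups. No member was under 60% in either group. The lowest at 6 h were beside Gpr180, an orphan receptor gene (64.0%), and inside Dcc, the netrin receptor gene (64.0%).

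Every LPS 6 h library was above every saline library in 852 of 852 members, against 25.1% of eligible tiles. At 12 h the count was 852 of 852 (31.1% of tiles) and at 24 h 851 of 851 (28.6%). Since the rule used the saline libraries, nothing is read from these counts. The median gap between LPS and saline blood was 43.2 points at 6 h (range 17.2 to 63.4), 46.3 points at 12 h and 45.6 points at 24 h. Over all eligible tiles the median gap was 0.32, 0.83 and 0.48 points. The 6 h and 24 h tables hold partly other cytosines than the 12 h table, so the gap was also taken inside each table. There it was 42.7 points over 849 members at 6 h, with 848 free of overlap, and 45.01 points over 850 members at 24 h.

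The members form the low tail of a continuous range. Among the 33864 tiles high in the 3 other groups, 1 lay between 10 and 20% in saline blood, 32 between 20 and 30%, 292 between 30 and 40% and 527 between 40 and 50%. A further 616 lay at 50 to 60%, 1208 at 60 to 70% and 3363 at 70 to 80%. The bound at 50% therefore cuts a slope rather than a gap. Just inside it were tiles in Camta1, a transcription activator gene (49.987%), Hk1, hexokinase 1 (49.988%), and Nckap5 (49.998%). Just outside were Rnf40, a histone H2B ubiquitin ligase gene (50.005%), and tiles beside Stn1, of the telomere CST complex (50.022%), and Arhgef19 (50.025%). The reverse pattern, at or above 70% in saline blood and at or below 50% in the 3 other groups, was found in 17 tiles.

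**Figure D2:**
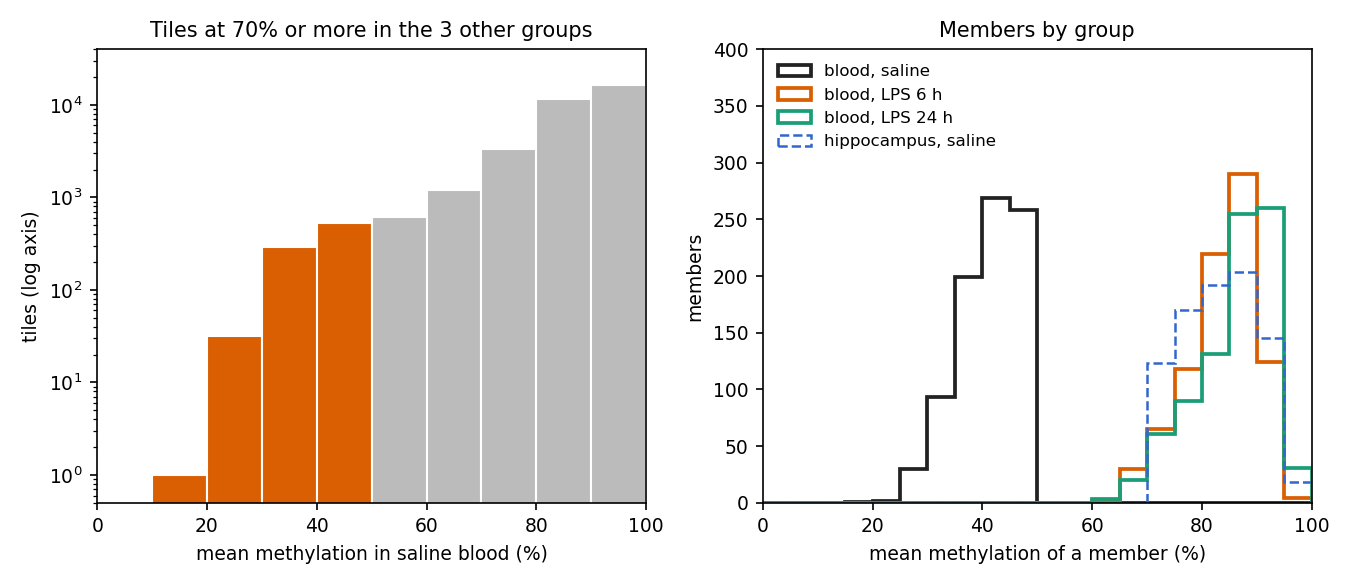
Left, number of tiles (log axis) at 70% or more in saline hippocampus, saline cortex and LPS 12 h blood by their mean methylation in saline blood in percent; the members, at most 50%, are orange. Right, number of members by mean methylation in percent in 4 groups: saline blood peaks between 40 and 50%, and LPS 6 h and 24 h blood lie above 60%.

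The median spread between saline libraries was smaller than the median gap to LPS blood. The bounds of the rule, at most 50% in saline and at least 70% in LPS 12 h blood, set that gap in part. In the 12 h table, all 4 saline libraries were at or below 50% in 563 members. At least 1 exceeded 50% in 289, and no library reached 70% in any. In the 6 h and 24 h tables, which hold partly other cytosines, the median saline mean of a member was 42.5 and 42.4%. The highest was 76.1% in the 6 h table and 77.6% in the 24 h table. The median range over the 4 libraries was 10.8 points, and 6 members had a range of at least 30 points. Library 4 was the lowest in 258 members, library 3 in 232, library 2 in 185 and library 1 in 177.

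Low members were intermediate in methylation rather than unmethylated. Of the single-cytosine values in the 4 saline libraries (4588 cytosines), 96.1% lay between 20 and 80%, 3.17% under 20% and 0.74% over 80%. In LPS 6 h blood 30.6% of the values lay between 20 and 80% and 69.3% over 80%. In tiles high in all 4 groups the saline libraries had 15.6% of values between 20 and 80%. Within the members, 84.7% of cytosines had a saline mean at or below 50%, and the middle 80% of cytosine means ran from 29.5 to 53.4%. The rule's bound on the saline mean largely sets the share at or below 50%. Cytosines were pooled over all members, so agreement inside a single member was not measured.

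**Figure D3:**
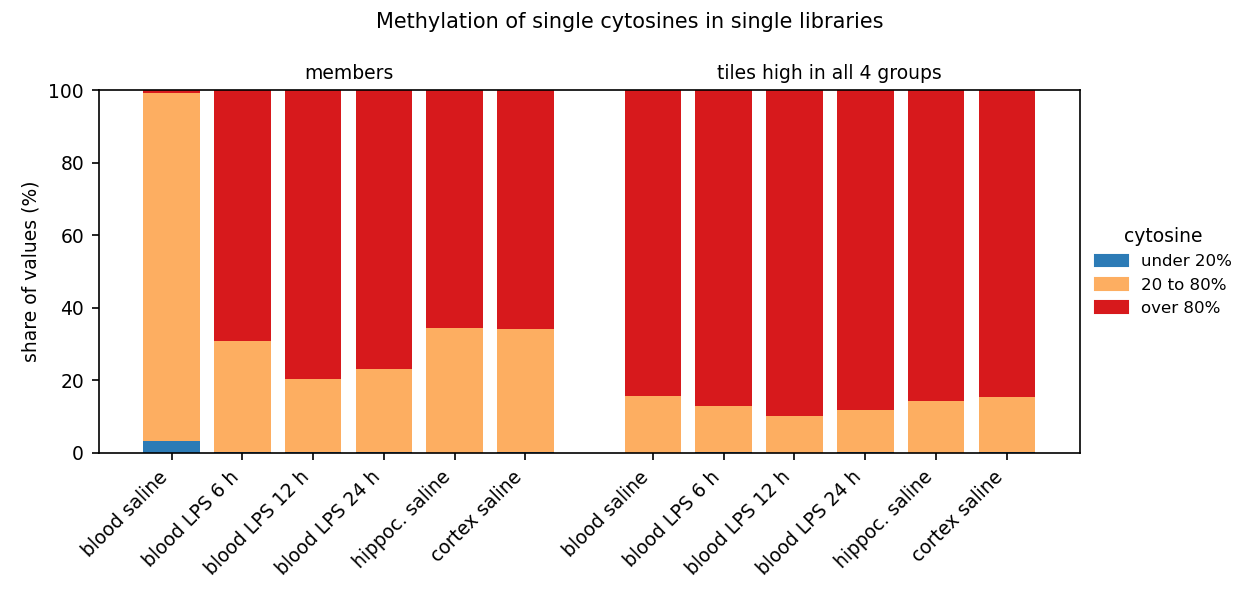
Share in percent of single-cytosine values per library that are under 20%, 20 to 80% or over 80% methylated, for members (left) and tiles high in all 4 groups (right), in 6 groups. Saline blood over the members is almost all intermediate (96.1%), and in the other 5 groups over the members most values exceed 80%.

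The lowest members inside genes were in an order fixed by the saline level that chose them. Hspg2 encodes perlecan, the heparan sulfate proteoglycan of basement membranes. Its lowest tile (chromosome 4, 137471000 to 137471999, 5 cytosines) had 29.4, 15.5, 21.6 and 22.0% in the 4 saline libraries. The 4 LPS 6 h libraries had 85.5, 88.0, 81.4 and 87.3%. This gap of 63.4 points was the largest of any member at 6 h, and the groups lay more than 50 points apart. Hspg2 held 2 further members, with saline means of 40.1 and 43.5% and LPS 6 h means of 78.5 and 85.9%.

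Cspg4, the proteoglycan NG2 of pericytes and progenitor cells, had 26.9, 25.6, 22.0 and 25.5% in saline blood (chromosome 9, 56866000 to 56866999). Its LPS 6 h libraries had 82.0, 62.7, 77.6 and 69.1%, with library 2 the lowest. The tile of Anxa8 (chromosome 14, 34085000 to 34085999), which holds the promoter shown above and also overlaps A630023A22Rik, had 8.82, 27.5, 36.6 and 31.3%. Saline library 1 stood below the other 3 there. The LPS 6 h libraries had 82.5, 80.6, 77.4 and 79.1%, with a spread of 2.17 (SD, n = 4) against 12.1 in saline.

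Capn1, the calcium-activated protease calpain 1, had 24.1, 30.7, 24.5 and 27.6% in saline and 87.6, 76.7, 85.9 and 87.7% in LPS 6 h blood (chromosome 19, 6014000 to 6014999). Lgals7, galectin 7 of stratified epithelium, had 31.3, 21.3, 28.1 and 26.2% in saline (chromosome 7, 28865000 to 28865999). Its LPS 6 h libraries had 69.0, 69.0, 70.7 and 61.2%. Lgals7 is thus among the members with a group mean under 70% at 6 h (67.5% ± 4.27, n = 4) and at 24 h (68.9% ± 6.51, n = 3). Gsn, the actin-severing protein gelsolin, had 23.8, 30.2, 33.1 and 27.4% in saline and 91.4, 74.7, 85.3 and 78.0% in LPS 6 h blood.

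The others of the 15 lowest were in Them7, Kyat1 (a kynurenine aminotransferase), Rnf144b (a ubiquitin ligase), Arhgap28 and Aldh3a2 (fatty aldehyde dehydrogenase). The last of them were in Sorcs2 (a neurotrophin co-receptor), Tacc2 (a centrosome protein), Slc7a7 (an amino acid transporter) and Fignl2. Their saline means ran from 26.3% in Them7 to 29.4% in Fignl2, and their LPS 6 h means from 69.0% in Them7 to 82.5% in Tacc2. The Arhgap28 tile holds one of that gene's annotated starts. The lowest member of all was far from any gene, on chromosome 15 (59184000 to 59184999), 100044 bp from Mtss1, an actin and membrane-binding protein gene. It had 20.6, 9.50, 16.8 and 20.7% in saline and 70.3, 83.7, 72.1 and 69.4% in LPS 6 h blood.

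**Figure D4:**
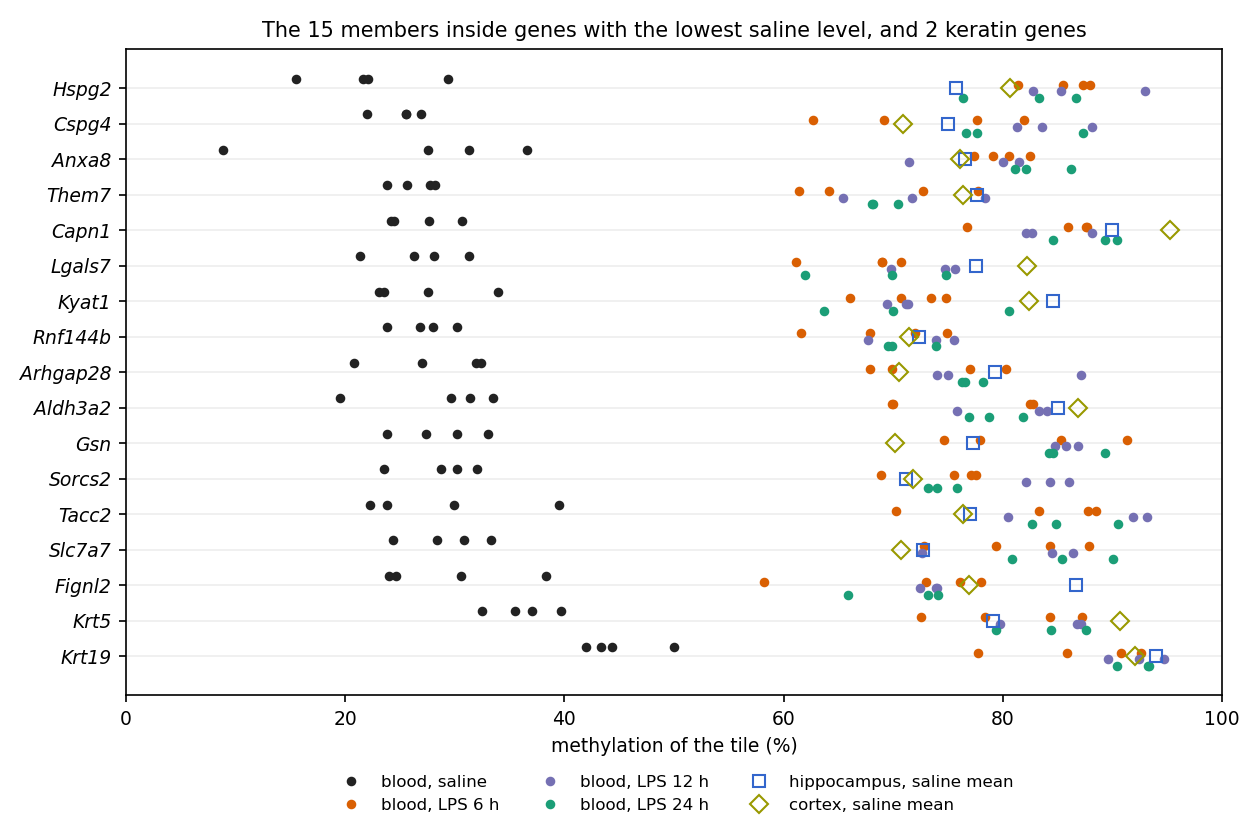
Methylation in percent (horizontal axis) of the 15 members inside genes with the lowest saline level, and of the Krt5 and Krt19 tiles, one point per blood library and open symbols for the saline means of both brain regions. In each tile the 4 saline points lie to the left of the 10 LPS points, from 8.82% in Anxa8 upward.

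Members with the most cytosines rest on more positions. The one with the most (22 cytosines) lay 24367 bp from Casz1, a zinc finger transcription factor gene. It had 38.6, 33.5, 36.8 and 29.5% in saline and 74.4, 62.9, 69.5 and 74.6% in LPS 6 h blood. Cradd, a death domain adaptor (21 cytosines), had 42.5% ± 3.41 and 91.4% ± 5.39 (n = 4 each). Col25a1, a membrane collagen (20 cytosines), had 34.5% ± 5.24 and 82.9% ± 7.64. Eif3l, a translation initiation factor subunit (19 cytosines), had 44.5% ± 4.71 and 92.0% ± 4.32. With saline values of the 12 h table, the saline and LPS 6 h libraries of these tiles did not overlap, as in every member. The rule used the saline libraries, so nothing is read from this. The other 4 with 15 or 16 cytosines were in Slc2a9 (a urate transporter), Pml (the nuclear body scaffold) and Dock9 (a Cdc42 activator), and beside Ccdc116. Their saline means were 40.1 to 48.9% and their LPS 6 h means 85.2 to 90.8%.

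Genes that mark cell types were counted from 24 lists, each as members among the list's tiles that were high in the 3 other groups. The share to set beside each count is the 2.516% of all such tiles. The largest share was in the epithelial and keratinocyte list, with 2 of 13 tiles (15.38%). Krt5, the keratin of basal keratinocytes, had its transcription start inside its member (chromosome 15, 101712000 to 101712999). The saline libraries had 37.0, 39.7, 35.5 and 32.5% and the LPS 6 h libraries 87.2, 72.5, 84.3 and 78.4%. In saline hippocampus and cortex the same tile had 79.1 and 90.8%. Krt19, a keratin of simple epithelia and hair follicles (chromosome 11, 100141000 to 100141999), had 43.3, 44.3, 42.0 and 50.03% in saline. It had 92.6, 77.8, 85.9 and 90.8% in LPS 6 h blood. The list's other 14 tiles that were high in both saline brain regions averaged 78.5 to 81.0% in a saline blood library and 78.5 to 81.7% in an LPS 6 h library, so the gap lay in the tiles the rule had chosen.

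Among the lists of blood cells, members were found in the B cell (5.0%) and pan-leukocyte (6.452%) lists. The share of all tiles high in the 3 other groups was 2.516%, and these counts are too small to set against it. Neutrophil (6 tiles), monocyte and macrophage (10), T cell (16), NK cell (1), erythroid (27) and platelet (1) lists had 0 members. The rule leaves out any tile under 70% in LPS 12 h blood, so tiles that were low in LPS blood could not count. Over the 16 neutrophil tiles that were high in both saline brain regions, a library averaged 76.5 to 79.2% in saline and 60.9 to 65.04% in LPS 6 h blood. The 13 monocyte and macrophage tiles averaged 82.2 to 83.3% and 70.1 to 71.8%, and the 20 T cell tiles 81.5 to 81.8% and 72.7 to 75.2%. The median monocyte tile had 88.21% in saline and 87.85% in LPS 6 h blood, where 3 tiles were at or below 50%. The median T cell tile had 89.7 and 87.0%, with 4 tiles at or below 50% in LPS 6 h blood and 1 in saline. The median neutrophil tile had 80.5 and 65.5%, with 6 tiles at or below 50% in LPS 6 h blood. The monocyte and T cell gaps thus lay in few tiles. In the neutrophil, monocyte and T cell lists, these means were higher in saline than in LPS 6 h blood with no overlap of libraries. The B cell list went the other way. Without its member, its 21 tiles averaged 79.1 to 80.3% in saline and 82.4 to 84.5% in LPS 6 h blood. Libraries overlapped in the erythroid, NK cell and platelet lists. Lists of other tissues went both ways. The 3 pancreas tiles had 73.4 to 78.6% and 52.0 to 60.2%. The 22 smooth muscle tiles had 78.3 to 79.4% and 82.7 to 86.0%. The part of these levels in the results was not tested. The B cell list had 1 of 20, in Pax5, the B cell identity factor, with 26.7, 34.6, 32.6 and 30.4% in saline. Its LPS 6 h libraries had 71.4, 59.8, 76.4 and 70.1%. The pan-leukocyte list had 2 of 31, a tile 708 bp from Ptpn6 (saline 37.7% ± 5.62, LPS 6 h 80.9% ± 3.66, n = 4 each) and a tile in Dock2 (48.8% ± 5.95 and 83.3% ± 4.12). Ptpn6 and Dock2 thus had 1 tile that was lower in saline than in LPS blood and, as described for the leukocyte check, another that was higher.

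Among other tissues, the endothelial list had 2 of 31 tiles. Eng, the TGF-beta co-receptor endoglin, had 43.0, 44.6, 41.5 and 44.9% in saline and 83.9% ± 2.69 (n = 4) in LPS 6 h blood. Erg, an ETS factor of endothelium, had 44.1% ± 4.41 and 75.3% ± 8.16. The list's other 35 tiles that were high in both saline brain regions went the other way. They averaged 84.7 to 85.2% in a saline blood library and 80.2 to 82.3% in an LPS 6 h library. The kidney tubule list had 1 of 15, in the salt transporter gene Slc12a1, and the bone and cartilage list 1 of 14, in the cartilage proteoglycan gene Acan. The hepatocyte list had 0 of 32 tiles, skeletal and cardiac muscle 0 of 50, fibroblast and stromal 0 of 21, smooth muscle 0 of 21 and adipocyte 0 of 8. Intestine (11 tiles), lung (4), pancreas (1), germ cell (4), neuron (21), astrocyte (7) and oligodendrocyte (9) had 0 members each. Many lists had so few high tiles that a count of 0 or 1 says little.

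Lists by function were counted in the same way. Transcriptional corepressors and regulators had 2 of 41, in Tle3, a Groucho corepressor, and Tead1, the YAP partner. Axon guidance had 1 of 80, in Dcc, and glucocorticoid response 0 of 8.

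A longer list of epidermis and stratified epithelium genes (73 genes) was put together after the members had been seen, so its count and the levels of its members follow from that choice and are given as a description. Of its 133 high tiles 32 were members, in 28 genes. The keratins Krt5, Krt15 and Krt40 had saline means of 36.2, 42.1 and 38.7% and LPS 6 h means of 80.6, 88.2 and 86.5%. Adhesion genes included Itga3, Itga6, Lama5, Nectin4, Pkp3 and Kazn. Itga6, the integrin alpha 6 chain of hemidesmosomes, had 24.7, 32.9, 26.3 and 43.4% in saline and 91.2, 75.1, 91.7 and 90.5% in LPS 6 h blood. Pkp3, a desmosome plaque protein, had 35.1 and 87.7%.

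The epithelial transcription factors with a member were Ehf, Elf5, Foxn1, Pou2f3, Tcf7l1 and Casz1. Foxn1, the nude gene of hair follicle and thymus epithelium, had 2 members. One of them (chromosome 11, 78384000 to 78384999) had 32.5, 33.0, 33.0 and 33.1% in saline and 90.3, 74.5, 94.7 and 89.4% in LPS 6 h blood. The saline libraries differed by less than 1 point there. Tcf7l1, a TCF repressor of skin stem cells, had 3 members with saline means of 42.8, 44.0 and 32.9% and LPS 6 h means of 79.6, 90.2 and 81.4%. Ehf, an ETS factor of epithelia, had 33.7, 34.1, 30.3 and 31.4% in saline and 86.9% ± 3.89 (n = 4) in LPS 6 h blood.

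Receptors of skin appendages on the list were Edar, the ectodysplasin receptor (36.9 and 80.8%), and Lgr6, a marker of hair follicle stem cells (42.0 and 78.4%). LPS 6 h library 2 had 57.7% in Lgr6, against 80.6 to 88.9% in the other 3. Secreted or cytosolic products were Lgals7, Anxa8, Sfn (49.9 and 91.2%), Slurp2 and Klk9. The list's 110 other tiles that were high in both saline brain regions averaged 80.7 to 81.5% in a saline library and 83.7 to 86.5% in an LPS 6 h library.

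By position, 463 members (54.34%) overlapped a protein-coding gene, against 50.14% of tiles high in all 4 groups and 62.94% of eligible tiles. A further 116 lay within 10 kb of a gene and 273 farther away. The reference gives gene spans but no exons here, so exon and intron were not separated. Of the 818 members on chromosomes with known starts, 24 (2.934%) held a transcription start, against 1.337% of tiles high in all 4 groups and 14.13% of eligible tiles. The median distance to the nearest start was 16220 bp, against 26600 and 13030 bp. Members were thus mostly away from gene starts, as were other highly methylated tiles. Members lay on all 19 autosomes, from 1.812% of the tiles high in the 3 other groups on chromosome 13 to 3.112% on chromosome 2.

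Members overlapped 434 genes, and 33 genes held 2 or more. Hspg2, Tcf7l1 and Rora, a nuclear receptor gene, held 3 each. In Rora the saline means were 31.0, 36.0 and 45.3% and the LPS 6 h means 84.6, 82.7 and 91.1%. Nfkb1, the p105 and p50 subunit gene of NF-kappaB, held 2, with 38.5 and 44.8% in saline and 87.0 and 89.4% in LPS 6 h blood. Lgals3 (galectin 3) also held 2, with 34.2 and 38.1% in saline and 89.8 and 79.9% in LPS 6 h blood.

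Few tiles beside a member were measured, 73 before and 58 after, and 9 members had the next tile as a member too. Among tiles high in the 3 other groups, the one just before a member had a median of 70.8% in saline blood (46 tiles, 9 of them members, or 19.57%), and the one just after 84.3% (34 tiles, 9 members, or 26.47%). These shares stand beside the 2.516% of all such tiles. Without those members the medians in saline blood were 80.9% before (37 tiles) and 87.0% after (25 tiles). The low level at the members themselves was set by the rule. From 2 to 10 kb on either side the medians ran from 84.3 to 90.9%. In LPS 6 h blood the medians from 1 to 10 kb ran from 87.5 to 91.7%.

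**Figure D5:**
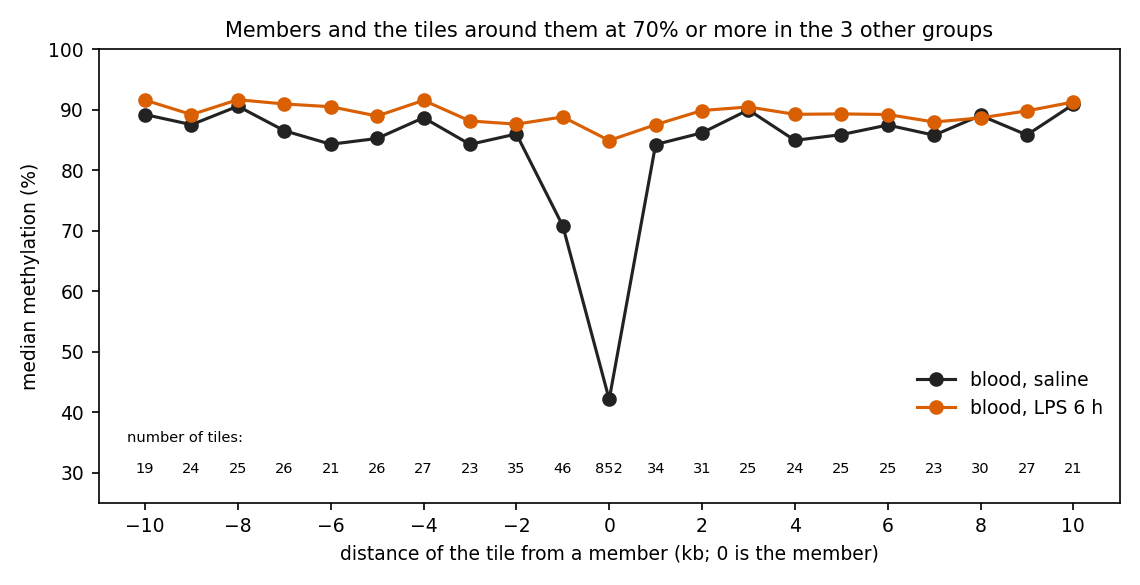
Median methylation in percent in saline and LPS 6 h blood of members (distance 0) and of tiles up to 10 kb before or after them that were at 70% or more in the 3 other groups, with the number of tiles printed below. Saline blood is 42.1% at the member, where the rule allowed at most 50%. It is 70.8% and 84.3% at the adjacent tiles, other members included, and 80.9% and 87.0% without them.

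Groups the rule had not used were tested against each other with limma over all tiles, calling an adjusted p under 0.05 with at least 5 points of difference. Between LPS 24 h and LPS 6 h blood, 0 of 842 members tested were called, against 0% of 67927 tiles. The lowest adjusted p of a member in limma was 0.9997, and 28 members had an unadjusted p under 0.05. The median difference, 24 h minus 6 h, was 2.35 points, and 0.12 points without LPS 6 h library 2. In hippocampus 0 of 635 members were called (0% of 52372 tiles, 25 members with an unadjusted p under 0.05). In cortex it was 0 of 803 (0% of 70983 tiles, 29 members). Of the 852 members, 10 could not be tested in blood, 217 in hippocampus and 49 in cortex.

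In the brain the members were also high after LPS. Saline hippocampus had 83.3% ± 0.340 (n = 3), and LPS hippocampus 79.8% ± 1.63 at 6 h (n = 4, 831 members), 81.3% ± 3.37 at 12 h (n = 3) and 80.8% ± 1.49 at 24 h (n = 4, 786 members). Cortex had 83.2% ± 1.40, 83.1% ± 1.74, 82.8% ± 2.17 and 83.6% ± 1.34 (n = 4 each). The rule used both saline brain groups, so no test was made against them. Over tiles high in all 4 groups, hippocampus had 90.1% in saline and 88.6% at 6 h after LPS. The numbers of members at or below 50% were 3 of 831 in LPS 6 h hippocampus, 3 of 786 in LPS 24 h hippocampus and 0 in every group of cortex.

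LPS 6 h cortex and LPS 6 h hippocampus differed in 96 of 728 members tested (13.19%), against 21.4% of 58370 tiles. The rule left out any tile under 70% in either saline brain region, and the 58370 tiles had no such bound. Nothing is therefore read from the lower share of members. Cortex was higher in 88 members (19.3% of tiles) and lower in 8 (2.09% of tiles). With each library centred on its own mean, 121 members were called, 35 higher and 86 lower, against 26.9% of all tiles, 12.2% higher and 14.7% lower. The split between directions thus depended on this choice. The median over all tiles moved from 2.56 to -2.25 points with centring. The count was 61 of 726 members without cortex library 3 (16.5% of tiles) and 56 of 726 without cortex library 4 (15.2% of tiles).

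The largest called gaps between the regions, each called in limma, were in tiles 19338 bp from Xpnpep1, an aminopeptidase gene, and in Agr2, Ablim3, H13 and, 28404 bp away, Bcl11b. The tile near Xpnpep1 had 56.8, 56.5, 73.5 and 56.0% in LPS 6 h hippocampus and 94.6, 93.7, 91.4 and 87.7% in LPS 6 h cortex (limma adjusted p = 0.0002395). Agr2, a disulfide isomerase of secretory epithelium, had 61.7, 65.6, 61.9 and 47.9% and then 90.3, 84.8, 93.0 and 91.2% (limma adjusted p = 0.0002509). Ablim3, an actin-binding LIM protein, had 49.8% ± 4.73 and 78.6% ± 5.30 (n = 4 each, limma adjusted p = 0.0005049). In these 3 tiles no hippocampus library reached the lowest cortex library.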

How the data were processed

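The authors deposited 9 tables (3 tissues by 3 times) of percent methylation per cytosine (0 to 100%), with 0 missing values, 1083654 to 1380165 cytosines each and no read counts. GRCm38/mm10, Bismark, methylKit, Bowtie2, Trim Galore, SAMtools and FastQC are listed, without roles, per the submitters' processing notes. Versions, coverage minimum and scaling were not given in the sources used here, and an uneven coverage or a conversion difference between libraries could not be checked. The labels' protocols state 100 ng of DNA per library. Saline values were identical across the blood tables at shared cytosines.

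Cytosines were averaged in tiles of 1000 bp (start divided by 1000, rounded down), with at least 3 rows per tile. Rows of both strands count separately. Saline means came from the 12 h tables. The members and gene lists were chosen with earlier results of these data known. LPS groups were compared with limma 3.58.1 in R 4.3.3 (trend, two-sided, Benjamini-Hochberg adjustment over all tiles with a mean of 5 to 95%), and the code was tested on simulated data. A member was given a list when it overlapped the gene or lay within 1000 bp. Gene spans and promoters are RefSeq (GRCm38.p6), and promoters of chromosome 18 were not used here. Named genes were the 15 lowest in saline blood inside a gene, the 8 with most cytosines, up to 4 per list, the 5 largest called differences per test, and 3 on each side of the 50% bound. Names outside this rule (the leukocyte check, promoters, genes with several members, the epidermis list and the lowest LPS 6 h levels) were chosen after values were seen. Tables were handled with Python 3.11.15, numpy 2.4.6 and pandas 2.3.3, and drawn with matplotlib 3.10.9. Some results of the gene lists are not reported here.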

Additional observations from a re-analysis of the deposited data

Results flagged for a closer look

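A gap test for a library far from the rest of its group was applied to 102 groups of 4 libraries, and chance flags about 1 in 20 of such groups. It marked LPS 6 h blood library 2 in 6 of the named members. That library had 76.72% in Capn1 (others 85.93 to 87.66%), 85.53% in Eif3l (93.75 to 94.41%) and 63.09% in Erg (78.43 to 80.51%). It had 76.18% in Arhgap26 (85.28 to 86.07%), 77.67% in H13, a signal peptide peptidase gene (94.48 to 96.54%), and 73.4% near Bcl11b, a T cell and neuron transcription factor gene (89.53 to 92.39%). With saline values of the 12 h table, library 2 stayed above every saline library in these tiles, as in every member.

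Saline blood library 1 stood apart in Cradd with 47.57% (others 40.63 to 40.84%), and saline blood library 4 in Camta1 with 42.84% (others 51.39 to 53.03%). Over all members, 1 library of LPS 12 h cortex had a mean of 79.56%, below the other 3 of its group.

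Chromosome X, which the autosomal rule leaves out, had 4 tiles that met the same bounds, or 0.6494% of its 616 tiles high in the 3 other groups. They lay in Prickle3, a planar polarity gene (46.8% in saline blood), 614 bp from Xiap, an apoptosis inhibitor gene (36.8%), and near Rhox10 (45.2%) and Pja1 (39.7%).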

How the results depend on the processing

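The number of members was 376 with at least 5 rows per tile, 424 with bounds of 75 and 45%, and 1458 with bounds of 65 and 55%, which held all 852. It was 1001 with the median over cytosines (807 shared) and 733 with saline values from the 6 h tables (716 shared). Leaving out 1 library of the rule at a time gave 836 to 873 members, of which 816 to 850 were shared. The share at or above 70% was 95.54 to 97.89% in LPS 6 h blood and 94.83 to 98.59% in LPS 24 h blood when a library of the group was left out, and 100% of members passed a bound of 60%.

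For the test between the brain regions, 96 members became 59 with at least 5 cytosines, and 56 to 101 when a library was left out. It was 93 on M values, 72 with no limit on the mean, 75 with at least 10 points and 121 after centring. The counts between LPS 24 h and LPS 6 h were 0 in all 3 tissues under every alternative run, leaving out a library included (0 to 0). With the replicate number as a block the count between regions was 89, and 0 in the other tests. Deviations of same-numbered libraries had correlations of -0.1229 to 0.1861. Library 4 between the hippocampus times (0.1861) and library 3 between the brain regions (0.1737) matched best with their own number, the others did not. Blood was not set against brain. Such correlations cannot show whether libraries share animals. Tiles with 3 rows at unknown read depth, a single saline time point and 3 or 4 libraries a group limit precision.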
